A study of Mus musculus with 4 samples.

Results

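This comparison set the hypothalamus of mice carrying a C26 tumour grown from 1000000 injected cells against that of sham-injected mice. It used 2 of the 4 arrays of the study, 1 on each side, and covered 19938 genes, which are all the genes with a probe set of exactly 1 gene symbol. Every array was made from male CDF1 mice, a cross of BALB/c and DBA/2, that were 10 to 11 weeks old. On day 0 the animals were injected under the skin of the right flank with 0.2 ml of Hanks' balanced salt solution, either alone for the sham controls or carrying C26 cells, and all were killed on day 20. The control array held pooled RNA of 4 animals and the array of 1000000 cells (1M) pooled RNA of 3. Arrays of 500000 cells (0.5M, 4 animals pooled) and 2000000 cells (2M, 1 animal, although its title calls it pooled) are given beside them where they help to read a value. Each value is a log2 expression level on that array, and a difference of 1 on this scale is 2-fold. With 1 array on each side there is no replicate check, so sizes are given without p-values and no SD can be given.

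C26 is a mouse colon adenocarcinoma line that causes cachexia, a wasting of muscle and fat in which cytokines of the interleukin-6 family act on distant organs. The hypothalamus is the brain region that sets hunger, energy use, water balance and the hormone output of the pituitary, and its arcuate nucleus and median eminence are exposed to signals from the blood. Cytokines reach it through the vessel wall and switch on acute-phase genes, and a stressed animal also releases glucocorticoids, which induce their own set of genes in brain cells. A hypothalamic dissection can hold pieces of neighbouring tissue, such as pituitary, meninges, ventricle lining and midbrain, so markers of these are given beside the genes they touch. In such bulk RNA, fewer cells of a type and less RNA per cell cannot be told apart.

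Hypothalamic markers were present on both arrays. Of 23 measured transcription factors of the hypothalamus, 21 passed the filter on low values, a mean level of at least 6.59 log2 over the 4 arrays, and the peptide genes Pmch and Hcrt stood at 11.40 and 11.46 log2 in control and reached 11.72 and 11.51 at 1M. Among markers of neighbouring tissues, 9 of 9 striatal, 7 of 8 cortical, 4 of 6 thalamic, 8 of 15 choroid plexus, 4 of 10 pituitary and 7 of 16 midbrain and hindbrain genes passed it. Their median differences at 1M were 0.16, 0.13, -0.06, 0.15, 0.35 and 0.03 log2 in that order. Single markers lay further out on both sides. The cortical genes Slc17a7 and Fezf2 differed by -0.59 and 0.41 log2. The choroid plexus genes Kcnj13 and Aqp1, the latter below the filter, differed by -0.60 and 0.53, and the choroid plexus median was 0.0012 over members past the filter. The median over all genes was 0.07 log2, and over genes past the filter 0.04. Array medians lay between 6.72 and 6.77 log2. The control and 1M arrays correlated at 0.984 over probe sets, the lowest of the 6 pairs.

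Past the filter, 195 of 11963 genes (1.63%) stood at least 0.5 log2 higher at 1M, a 1.41-fold difference, and 256 (2.14%) at least 0.5 log2 lower. At 1 log2 the counts were 10 higher (0.0836%) and 13 lower (0.109%), and at 0.25 log2 they were 1788 higher (14.9%) and 1292 lower (10.8%). Over all 19938 genes, 640 (3.21%) were at least 0.5 log2 higher and 318 (1.59%) lower, and 4212 (21.1%) and 1636 (8.21%) at 0.25 log2. The higher genes were thus more often genes of low level, and of the 195 that passed the filter, 44 had a control level below the filter value and passed through the other arrays. Most sizes were small, with 111 of the 195 and 125 of the 256 between 0.5 and 0.6 log2. The central 68% of differences past the filter ran from -0.19 to 0.24 log2. The 195 higher genes had a median difference of 0.58 log2 at 1M, with 0.33 at 0.5M and 0.46 at 2M, and the 256 lower genes -0.61, with -0.26 and -0.35. All of these share the control array.

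The difference moved with the level of a gene. By decile of mean level, the median at 1M lay 0.10 log2 above control in the lowest decile, 0.16 in the third and at -0.01 in the highest, while at 0.5M the same deciles stood at -0.03, -0.03 and 0.01. It also moved with the genomic span of the gene, from 0.10 log2 in the shortest decile to 0.02 in the longest. Median spans were 7.52 kb for the higher genes, 21.6 kb for the lower genes and 25.2 kb for all genes past the filter. Olfactory receptor genes, whose receptors detect odours in the nose, give the same picture: of 1027 measured, 10 passed the filter, and the median was 0.09 log2 with 53 at least 0.5 log2 higher and 8 lower. Vomeronasal receptor genes, 0 of 163 past the filter, also had a median of 0.09 log2. A list with many members of low level is to be read beside these values, and the part of the offset in any list was not tested. List medians within 0.1 log2 of 0 are given without a direction, since several change sign with the scaling or the filter.

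**Figure D1:**
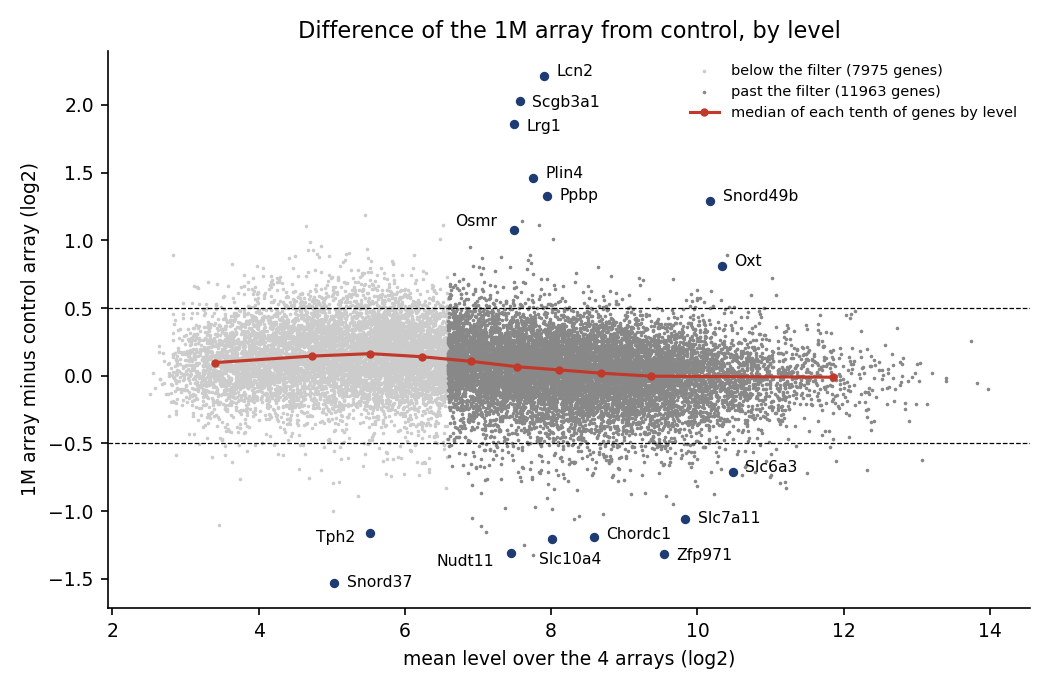
Each point is 1 of the 19938 genes, with its mean log2 level over the 4 arrays on the x axis and its log2 difference between the 1M and control arrays on the y axis. Dashed lines mark 0.5 log2 in each direction, and the red line, joining the median of each level decile, lies at 0.16 in the third decile and -0.01 in the highest, while Lcn2, Scgb3a1 and Lrg1 stand far above the other genes.

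The 3 highest genes at 1M encode secreted proteins. Lcn2, which encodes lipocalin-2, a protein that binds bacterial siderophores, stood at 6.02 log2 in the control array, 8.53 at 0.5M, 8.23 at 1M and 8.82 at 2M. The 1M array was 2.21 log2 above control, a 4.64-fold difference, and lay below the other tumour-bearing arrays. Scgb3a1, a small secretoglobin best known from airway lining, stood at 5.94, 8.22, 7.97 and 8.15 log2 in the same order, a 4.09-fold difference at 1M. Lrg1, a leucine-rich glycoprotein of the acute phase, stood at 5.99, 7.96, 7.84 and 8.16 log2, a 3.62-fold difference at 1M. In all of these genes the control was the lone low array and the 1M array was the lowest of the tumour-bearing ones. All had a control level below the filter value.

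Plin4, which coats lipid droplets, stood at 6.69, 7.88, 8.15 and 8.30 log2 in control, 0.5M, 1M and 2M, and was 2.75-fold higher at 1M than in control. Ppbp, the precursor of a platelet chemokine, stood at 7.01, 8.04, 8.34 and 8.39 log2, 2.51-fold higher at 1M. Osmr, the oncostatin M receptor subunit, stood at 6.69, 7.71, 7.77 and 7.79 log2, 2.11-fold higher at 1M. In these genes too every tumour-bearing array lay above the control, and the tumour-bearing arrays were close to each other. The 12 highest also held the predicted genes Gm10644 (1.15 log2 higher at 1M) and Gm10874 (1.12), the small nucleolar RNA gene Snord49b (1.29), the microRNA genes Mir138-2 (1.01) and Mir107 (0.95), and the olfactory receptor gene Olfr767 (0.90). Below the filter, Gm5592, Vaultrc5, a small RNA of the vault particle, and Olfr172 were 1.19, 1.11 and 1.11 log2 higher. Olfactory receptor genes have near copies that can share probes, so the olfactory values are uncertain.

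**Figure D2:**
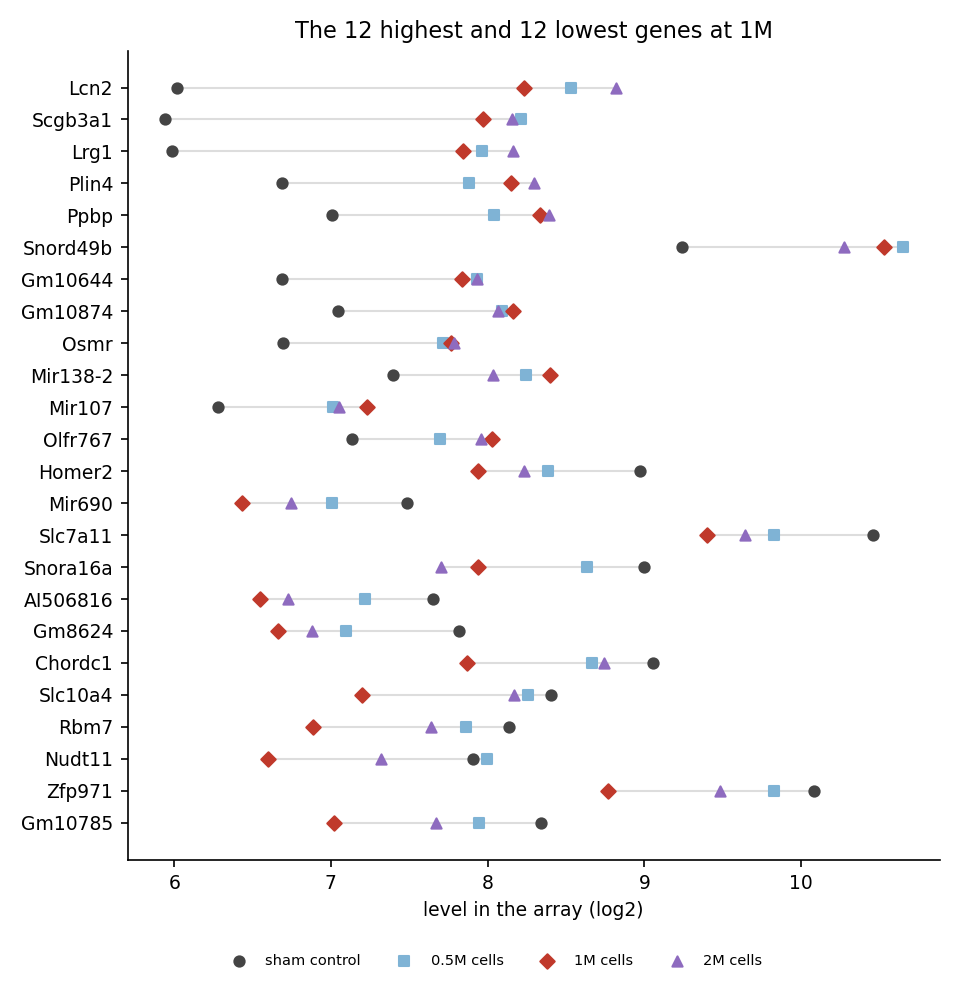
Log2 level on each of the 4 arrays (x axis) for the 12 genes highest and the 12 lowest at 1M against control among genes past the filter, 1 row per gene and 1 symbol per array. In the upper rows the control is the lone low array, as for Lcn2 at 6.02 log2, whereas in the lower rows the 1M array often lies apart, as for Slc10a4 at 7.20 log2.

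Genes of the interleukin-6 family and the acute phase, a list of 38 measured genes, had a median of 0.22 log2 at 1M, with 0.05 at 0.5M and 0.20 at 2M. At 0.25 log2, 17 were higher and 0 lower, against 21.1% and 8.21% of all genes, and at 0.5 log2, 6 were higher. Beside Lcn2, Lrg1 and Osmr, Socs3, the feedback inhibitor induced by this pathway, stood at 6.54 log2 in control, 6.68 at 0.5M, 7.09 at 1M and 6.94 at 2M, and Il6ra, the interleukin-6 receptor, was 0.43 log2 higher at 1M. Below the filter, Hamp, the iron hormone hepcidin, was 0.74 log2 higher and Bcl3, a regulator of NF-kB, 0.52. Among the other signalling genes of the list, Il6st, the shared receptor gp130, differed by -0.08 log2, the kinase gene Jak2 by -0.17 and the receptor gene Lifr by 0.17. The acute-phase genes Saa3 and Saa1 differed by 0.00 and -0.05 log2, both below the filter. Only 16 of the 38 passed the filter, and with members past the 60th percentile of level the median was 0.09 log2.

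Promoter windows of the leading genes were read for a STAT motif, because STAT3 is the transcription factor that this cytokine family activates. The motif searched was TTCNNNGAA, which reads the same on both strands, in windows from 250 bases before to 50 after each RefSeq start in assembly GRCm38.p6. It was found in the windows of Scgb3a1 and Socs3 and not in those of Lcn2, Lrg1 and Osmr. The Scgb3a1 window, chr11:49663345-49663644 on the plus strand, has the match starting at position -194 from the start, and the Socs3 window, chr11:117969317-117969616 on the minus strand, at -154. Capitals mark the match.
Scgb3a1: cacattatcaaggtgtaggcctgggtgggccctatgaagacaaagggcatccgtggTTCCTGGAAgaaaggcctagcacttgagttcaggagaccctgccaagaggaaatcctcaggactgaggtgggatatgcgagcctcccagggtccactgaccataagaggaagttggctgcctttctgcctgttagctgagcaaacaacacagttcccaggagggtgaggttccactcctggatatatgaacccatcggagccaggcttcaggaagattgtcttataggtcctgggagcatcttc
Socs3: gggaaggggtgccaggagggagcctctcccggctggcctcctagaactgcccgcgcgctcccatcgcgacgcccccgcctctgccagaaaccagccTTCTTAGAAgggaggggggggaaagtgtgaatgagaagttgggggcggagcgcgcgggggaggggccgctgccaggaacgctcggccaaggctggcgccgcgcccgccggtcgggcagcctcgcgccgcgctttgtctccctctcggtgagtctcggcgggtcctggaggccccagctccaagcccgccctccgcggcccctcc
The letters occur in 8.30% of all promoter windows, 6.48% of those of genes past the filter, 7.36% of those of genes at least 0.5 log2 higher and 5.20% of those of genes lower. The higher genes thus held the letters at about the share of the other sets, and a match describes the sequence only.

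Glucocorticoid-responsive genes, which brain cells switch on when the hormone binds its receptor, were higher at 1M across most of the list. Of 24 measured genes, 16 were at least 0.25 log2 higher and 1 lower, and 7 were at least 0.5 log2 higher and 0 lower. Of all genes, 21.1% were higher and 8.21% lower at 0.25 log2, and 3.21% and 1.59% at 0.5. The median was 0.36 log2 at 1M, with 0.23 at 0.5M and 0.44 at 2M, against 0.07 over all genes at 1M, and 23 of the 24 passed the filter. Arrdc2, an arrestin-like gene, stood at 6.59, 6.88, 7.34 and 7.36 log2 in control, 0.5M, 1M and 2M. Angptl4, a secreted inhibitor of lipoprotein lipase, and Hif3a were 0.64 and 0.61 log2 higher at 1M. Fam107a, a stress-induced gene of glia and neurons, stood at 10.60 in control and 11.19 at 1M, and Klf9, a transcription factor that thyroid hormone also induces, at 9.53 and 10.09. Known readouts of receptor activity were smaller in size, with Sgk1 at 0.38 log2, Fkbp5 at 0.37 and Tsc22d3 at 0.26. The receptor genes themselves, Nr3c1 and Nr3c2, stood at -0.05 and -0.31 log2. Nfkbia, which holds NF-kB inactive and responds to cytokines as well, was 0.57 log2 higher. The palindrome ACANNNTGT, part of the glucocorticoid response element, was in none of the windows of Plin4, Fkbp5 and Arrdc2, and occurs in 6.13% of windows of the higher genes, 2.40% of the lower, 3.95% of genes past the filter and 6.85% of all.

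Some genes set the 1M array apart from the other 3. Past the filter, 21 genes were at least 0.5 log2 below the nearest other array at 1M and 2 were at least 0.5 log2 above it. The direction depended on the filter, since without it 25 genes were below and 34 above, and at 0.25 log2 the counts past the filter were 304 below and 217 above. The same count for the other arrays gave 14 highest and 36 lowest with the control as the lone one, 3 and 0 with 0.5M, and 7 and 12 with 2M. Slc10a4, a vesicle protein of cholinergic and monoamine neurons, stood at 8.40 log2 in control, 8.26 at 0.5M, 7.20 at 1M and 8.17 at 2M. Ogn, the matrix proteoglycan osteoglycin, stood at 8.32, 8.21, 7.34 and 8.18 log2, and Chordc1, a partner of the chaperone HSP90, at 9.06, 8.66, 7.87 and 8.74. Ogn also belongs to the list of meningeal fibroblast genes given below. In Slc10a4 and Ogn the other arrays lay close together and the 1M array was the lone low one, by 0.97 and 0.85 log2. In Chordc1 the 1M array was the lowest by 0.80 log2, while 0.5M and 2M differed from control by -0.39 and -0.32.

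Rbm7, the RNA-binding part of a complex that targets transcripts to the nuclear exosome, was 1.25 log2 below control at 1M, and 0.28 below at 0.5M and 0.50 below at 2M. Nudt11, an enzyme of inositol pyrophosphate turnover, differed from control by 0.09 log2 at 0.5M, -1.31 at 1M and -0.58 at 2M, and the zinc finger gene Zfp971 by -0.26, -1.31 and -0.60. The predicted gene Gm10785 was lowest in the comparison past the filter, at 8.34 in control and 7.02 at 1M, a 2.50-fold difference. On the high side, Mir219a-2 stood at 6.73, 7.03, 7.60 and 6.86 log2 in control, 0.5M, 1M and 2M, and Zfpm1, a cofactor of GATA factors, at 7.37, 7.29, 7.90 and 7.40. Vegfa, the vessel growth factor, was also among the 8 highest by this gap, at 8.61, 8.67, 9.09 and 8.67 log2. The high-side count depended on scaling: it was 0 after cyclic loess and 1 with arrays centred on their medians.

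Other low genes were low on every tumour-bearing array. Slc7a11, which exports glutamate in exchange for cystine, stood at 10.46, 9.83, 9.40 and 9.64 log2 in control, 0.5M, 1M and 2M, a 2.08-fold difference at 1M. Homer2, a scaffold of glutamate receptors, stood at 8.97, 8.38, 7.94 and 8.23 log2, but its difference at 1M was -0.46 instead of -1.03 with its probe sets averaged. Gm8624, AI506816, Snora16a and Mir690 completed the 12 lowest, at -1.16, -1.11, -1.06 and -1.05 log2. In all of these genes the control was the highest of the 4 arrays. Outside the filter, Snord37, Tph2 and Mir376c differed from control by -1.53, -1.16 and -1.10 log2.

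Heat shock and chaperonin genes, which fold proteins in the cytosol and mitochondria, lay below control at 1M. Of 22 measured genes, all past the filter, 10 were at least 0.25 log2 lower and 2 higher, against 10.8% and 14.9% of genes that passed it, and the median was -0.22 log2 at 1M, -0.06 at 0.5M and -0.15 at 2M. After Chordc1, Hspe1, the mitochondrial co-chaperonin, stood at 10.43, 10.11, 9.61 and 9.85 log2 in control, 0.5M, 1M and 2M. Dnaja1, a partner of HSP70, stood at 10.19, 10.02, 9.63 and 9.95 log2, and Dnajb1 and Hsph1, which also serve HSP70, were 0.43 and 0.39 log2 below control at 1M. In Hspe1 and Dnaja1 the 1M array was the lowest of the 4. Subunits of the cytosolic chaperonin went both ways, from Cct2 at 0.27 log2 to Tcp1 at -0.36. Hspb1, a small heat shock protein of astrocytes and vessels, was higher, at 0.40 log2, and 1.02 at 2M. In the endoplasmic reticulum, Pdia3 and Hsp90b1 were 0.59 and 0.56 log2 below control, while the unfolded protein response list as a whole had a median of -0.03 log2 over 20 genes, 1 higher and 3 lower at 0.25 log2.

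The windows of these chaperone genes were read for a heat shock element core, GAANNTTC, which is the same on both strands. Chordc1 (chr9:18292017-18292316, plus strand) holds a pair of matches, starting at positions -4 and 7 from the start, Hspe1 (chr1:55087898-55088197, plus strand) holds 1 at -84, and Dnaja1 (chr4:40722218-40722517, plus strand) 1 at -124, in 1 of its 3 windows. They are shown as the leading low chaperones, with the matches in capitals.
Chordc1: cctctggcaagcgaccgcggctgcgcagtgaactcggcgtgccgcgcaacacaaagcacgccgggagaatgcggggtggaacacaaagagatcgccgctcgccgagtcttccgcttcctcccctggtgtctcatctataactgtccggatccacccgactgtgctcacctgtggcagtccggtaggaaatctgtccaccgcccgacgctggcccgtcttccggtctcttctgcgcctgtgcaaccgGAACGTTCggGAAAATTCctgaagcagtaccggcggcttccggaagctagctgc
Hspe1: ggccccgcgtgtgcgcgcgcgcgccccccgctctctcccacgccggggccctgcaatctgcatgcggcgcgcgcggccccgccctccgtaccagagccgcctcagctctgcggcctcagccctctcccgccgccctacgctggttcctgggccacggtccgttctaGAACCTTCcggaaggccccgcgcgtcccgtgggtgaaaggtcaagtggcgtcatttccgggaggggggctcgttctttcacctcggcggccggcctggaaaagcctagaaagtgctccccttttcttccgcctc
Dnaja1: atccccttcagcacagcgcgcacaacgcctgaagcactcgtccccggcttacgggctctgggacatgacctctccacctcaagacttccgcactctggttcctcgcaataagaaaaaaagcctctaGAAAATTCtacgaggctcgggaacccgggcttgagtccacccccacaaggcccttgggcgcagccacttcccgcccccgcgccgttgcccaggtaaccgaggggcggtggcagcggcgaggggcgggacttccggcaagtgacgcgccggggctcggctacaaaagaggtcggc
Dnajb1 had no match in its windows. The windows of Hsph1 overlap and hold the same match, at positions 42 and 21 from their starts. The core occurs in 9.20% of windows of genes at least 0.5 log2 lower at 1M, 5.52% of those higher, 5.53% of genes past the filter and 7.86% of all windows. No test was made of these shares.

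Several dopamine neuron genes were also lowest at 1M. Th, the rate-limiting enzyme of dopamine synthesis, stood at 10.53 log2 in control, 10.32 at 0.5M, 9.82 at 1M and 10.08 at 2M. Slc6a3, the dopamine transporter, stood at 10.76, 10.56, 10.05 and 10.55 log2, and Slc18a2, which loads monoamines into vesicles, at 9.59, 9.44, 9.11 and 9.44. For each of these genes the 1M array was the lowest, and for the transporters the 0.5M and 2M arrays were level with each other. The differences at 1M were -0.71, -0.71 and -0.48 log2. In the dopamine system list, 5 of 10 measured genes were at least 0.25 log2 lower and 2 higher, against 8.21% and 21.1% of all genes. The other 5 of the 10 lay above control, the highest by 0.28 log2. The list median was -0.21 log2, or -0.43 over the 7 members past the filter.

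A wider list of 18 genes of midbrain dopamine neurons was drawn up after these values were seen, so its counts describe and support nothing. Of the 18, 13 were at least 0.25 log2 below control at 1M, 6 at least 0.5, and 0 were 0.25 or more above. Of the list, 16 passed the filter. Among all genes past it, 10.8% were lower and 14.9% higher at 0.25 log2, and 2.14% lower at 0.5. The list median was -0.44 log2 at 1M, -0.15 at 0.5M and -0.13 at 2M, and 1M was the lowest of the 4 arrays in 12 of its genes. The nicotinic receptor subunits Chrna6 and Chrnb3, which these neurons carry, differed by -0.76 and -0.51 log2 at 1M. Nr4a2, a transcription factor that maintains them, differed by -0.59, Ret, the receptor subunit for GDNF, by -0.38 and Aldh1a1, an aldehyde dehydrogenase of a ventral subset, by -0.43. The other transcription factors of the list lay on both sides, with Pitx3 at 0.22 log2, Foxa1 at 0.16, Foxa2 at 0.09, Lmx1b at 0.07 and En2, below the filter, at -0.31. En1 differed by -0.25, -0.45 and -0.50 log2 at 0.5M, 1M and 2M. Of the 16 measured midbrain and hindbrain markers, 2 were higher and 4 lower at 0.25 log2, against 21.1% and 8.21% of all genes. Their median was 0.03 log2 at 1M, -0.16 at 0.5M and -0.10 at 2M, and -0.07 at 1M after cyclic loess. The mean level over this list was 6.38 log2 in control and 6.35 at 1M. Whether a differing share of midbrain tissue took part in the low dopamine genes was not tested.

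**Figure D3:**
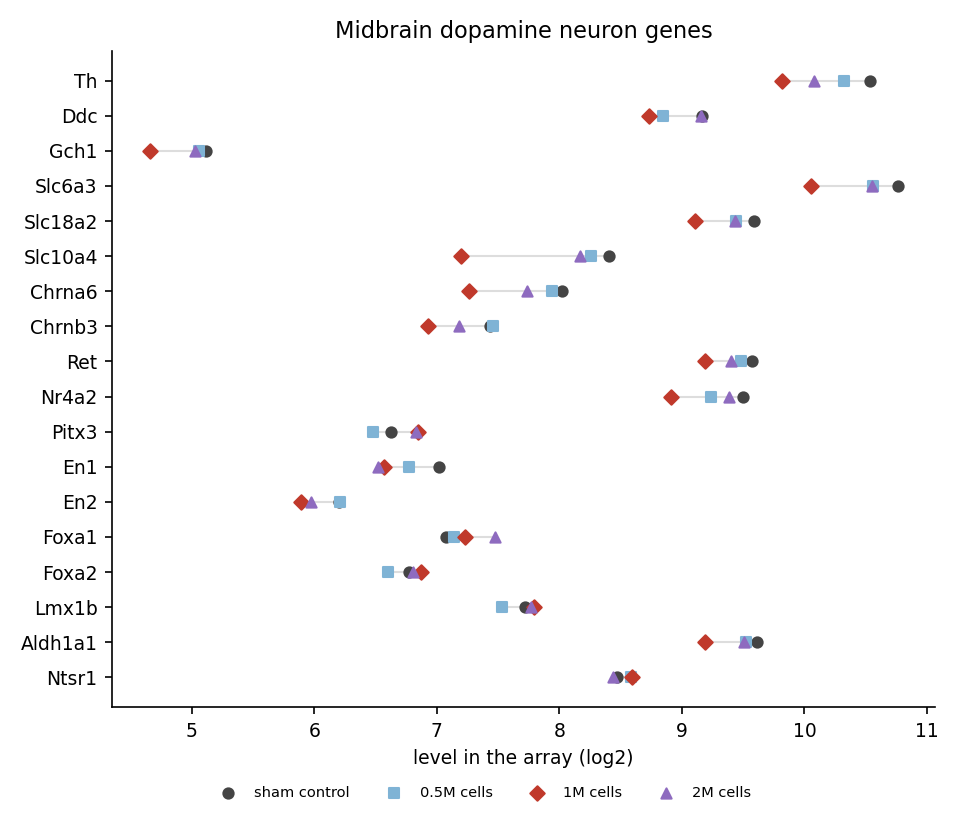
Log2 level on each of the 4 arrays (x axis) for 18 genes of midbrain dopamine neurons, 1 row per gene, a list drawn up after the values were seen. The 1M array is the lowest in 12 rows, among them Th at 9.82 and Slc6a3 at 10.05 log2, but not for Pitx3, Foxa2 and Lmx1b.

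Serotonin genes, which also serve monoamine neurons, had a median of 0.01 log2 over 21 measured genes. At 0.25 log2, 4 were higher and 6 lower, against 21.1% and 8.21% of all genes. Tph2, which makes serotonin in neurons, had a control level of 6.28 log2 and lay lower with 5.44 at 0.5M, 5.12 at 1M and 5.26 at 2M, all below the filter value. Slc6a4, the serotonin transporter, also below the filter, differed by -0.28 log2 at 1M, and Maob, a monoamine-degrading enzyme, by -0.58. The receptor gene Htr6 was higher, at 6.46 in control and 7.26 at 1M. Tph1, the enzyme of peripheral tissues, also below the filter, was 0.39 log2 higher, so the list lay on both sides of control.

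**Figure D4:**
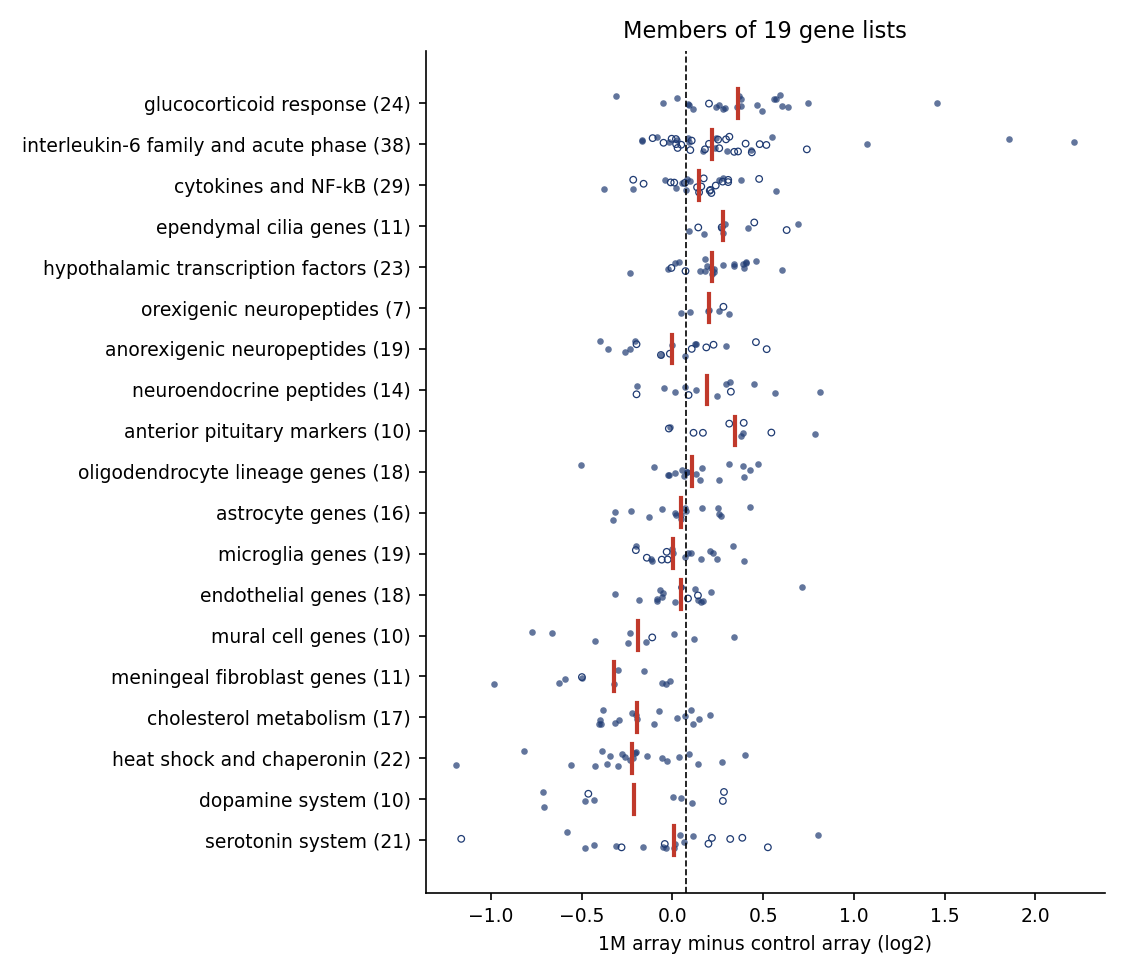
Log2 difference between the 1M and control arrays (x axis) for each measured member of 19 gene lists, with the number measured in brackets, filled points for genes past the filter and open points for those below it. Red bars are list medians and the dashed line is the median of all genes, 0.07 log2, so that glucocorticoid genes sit to its right, at 0.36, and meningeal fibroblast genes to its left, at -0.32; vertical scatter within a row only separates points.

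Appetite peptides showed small differences at 1M. Npy, the feeding peptide of the arcuate nucleus, stood at 10.32 log2 in control, 10.73 at 0.5M, 10.53 at 1M and 11.74 at 2M, so that 1M lay 0.20 above control and the single animal of 2M lay apart. Pmch, which gives rise to melanin-concentrating hormone, was 0.31 log2 higher at 1M and Hcrt, the orexin precursor, 0.05. The 7 measured feeding-stimulating peptides were all above control, with a median of 0.20 log2 and 3 at least 0.25 higher, where 63.8% of all genes were above control. Among 19 peptides that restrain feeding the median was 0.00 log2. At 0.25 log2, 3 of them were higher and 3 lower, against 21.1% and 8.21% of all genes. Pomc, the precursor of alpha-MSH, stood at 7.19 in control and 6.98 at 1M, and Cartpt at 9.39 and 9.52. Tac1, the substance P precursor, was 0.40 log2 below control, Grp 0.36 below and Adcyap1, which encodes PACAP, 0.26 below, while Trh was 0.29 above. Those lower at 0.25 all passed the filter, and with members past the 60th percentile the median was -0.23 log2. Agrp is not analysed here.

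Appetite hormone receptors had small differences, the median over 34 genes being 0.08 log2. At 0.25 log2, 7 were higher and 2 lower, against 21.1% and 8.21% of all genes. Ghsr, the ghrelin receptor, was 0.28 log2 higher and Irs2 and Irs1, which carry the insulin signal, 0.33 and 0.31. Insr and Hcrtr2 were each 0.26 log2 lower. Lepr, the leptin receptor, differed by -0.10 log2. Ramp3 and Npy4r had the largest differences, 0.57 and 0.56 log2, both below the filter.

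The magnocellular hormones were higher. Oxt, the oxytocin gene, stood at 9.77 log2 in control and 10.59 at 1M, a 1.76-fold difference, with 0.79 log2 at 0.5M and 0.62 at 2M. Avp, the vasopressin gene, stood at 9.92 and 10.48 log2, 1.48-fold higher at 1M, and Sst, the somatostatin gene, at 11.76 and 12.21. Of 14 neuroendocrine peptide genes, 6 were at least 0.25 log2 higher and 0 lower, against 21.1% and 8.21% of all genes, with a median of 0.19 log2. Ghrh, which drives growth hormone release, differed from control by -0.07 log2 at 0.5M, 0.25 at 1M and -0.42 at 2M, and Crh, below the filter, by -0.21, -0.20 and 0.67. Pituitary markers moved beside these genes: 6 of 10 were at least 0.25 log2 higher at 1M and 0 lower, against the same shares of all genes, with a median of 0.35 log2, or 0.24 after cyclic loess, and 4 of the 10 passed the filter. Gh, growth hormone, stood at 6.13 in control, 10.80 at 0.5M, 6.91 at 1M and 6.85 at 2M, so the high array was that of 0.5M. Prl, below the filter, was 0.55 log2 higher at 1M and 3.85 at 0.5M. The part of pituitary RNA in the hormone values was not tested.

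Transcription factors that pattern the hypothalamus were mostly above control. Of 23 measured, 20 were above, with 9 at least 0.25 log2 higher and 0 lower. Of all genes, 63.8% were above control, 21.1% at least 0.25 log2 higher and 8.21% lower. The list median was 0.22 log2 at 1M, 0.09 at 0.5M and 0.15 at 2M. Hmx3 stood at 6.48 log2 in control and 7.08 at 1M. Otp and Sim1, which specify oxytocin and vasopressin neurons, were 0.46 and 0.28 log2 higher. Vax1 and Six3, of the preoptic and anterior region, were each 0.41 higher, and Dlx1, of GABA neurons, 0.39. Barhl1, a mammillary gene, was the lowest, at -0.23 log2.

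Genes of motile cilia, which ependymal cells of the ventricle wall carry, were above control in 11 of 11 cases, with 8 at least 0.25 log2 higher, where 63.8% of all genes were above control and 21.1% at least 0.25 higher. Their median was 0.28 log2 at 1M, 0.16 at 0.5M and 0.33 at 2M, and 7 of the 11 passed the filter. Tekt4, a tektin of the cilium, stood at 6.59 in control and 7.28 at 1M and Ccdc153, a defining marker, was 0.42 log2 higher. Foxj1, the master factor of motile cilia, was only 0.09 log2 higher and Rsph1, below the filter, 0.14. Tanycytes, the ventricle cells of the hypothalamic floor, gave a median of 0.03 log2 over 12 genes, which was -0.30 with members past the 60th percentile. Fabp7, a fatty acid-binding protein of radial glia and astrocytes, stood at 12.30 log2 in control, 11.60 at 0.5M, 11.58 at 1M and 10.52 at 2M, and Gpr50 was 0.53 log2 lower at 1M. Dio2, the tanycyte and astrocyte enzyme that activates thyroid hormone, was 0.40 higher, and Hr, a thyroid hormone target, 0.67 higher. Both belong to a thyroid hormone axis list of 12 measured genes, with a median of 0.09 log2. At 0.25 log2, 4 of the 12 were higher and 1 lower, the latter at -0.39, against 21.1% and 8.21% of all genes.

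Fibroblast genes of the meninges, the membranes around the brain, were below control in 11 of 11 cases. At 0.25 log2, 7 were lower and 0 higher, against 8.21% and 21.1% of all genes, and the median was -0.32 log2 at 1M, -0.24 at 0.5M and -0.13 at 2M. Slc6a13, a GABA transporter of these cells, stood at 9.64 log2 in control and 9.05 at 1M. Aldh1a2, which makes retinoic acid, was 0.63 log2 lower and Dcn, the proteoglycan decorin, 0.50. Ogn had the largest difference of the list, -0.98 log2 at 1M, with -0.10 at 0.5M and -0.13 at 2M. Whether a differing share of meninges took part in these values was not tested. The collagen genes Col1a1, Col1a2 and Col3a1 differed by -0.03, -0.06 and -0.01 log2.

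Among genes of the vessel wall, Acta2, smooth muscle actin, stood at 9.30 log2 in control and 8.53 at 1M, and Tagln, another smooth muscle gene, at 7.33 and 6.66. The pericyte markers Pdgfrb and Rgs5 differed by 0.12 and -0.15 log2, and the 10 mural cell genes had a median of -0.19 log2, 1 higher and 3 lower at 0.25. Of these 10, 9 passed the filter, and of all genes past it 14.9% were higher and 10.8% lower. Endothelial genes, 16 of 18 past the filter, had a median of 0.05 log2, with 1 higher and 1 lower, against the same shares. The higher one was Vwf, von Willebrand factor, at 7.38 in control and 8.09 at 1M, and the lower one Tek, the angiopoietin receptor, at -0.32 log2. Blood transcripts were counted as well, since vessels carry them. Of 15 measured, 6 were at least 0.25 log2 higher and 0 lower, against 21.1% and 8.21% of all genes, and 3 passed the filter. Besides Ppbp, Alas2, the haem synthesis enzyme of red cell precursors, stood at 7.09 in control and 7.92 at 1M. The platelet gene Itga2b differed by 0.06 log2, and the neutrophil genes S100a8 and S100a9, below the filter, by 0.16 and 0.17. The part of blood in the Lcn2 value was not tested.

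By their median, oligodendrocyte genes lay slightly above control at 1M and below it on the other tumour-bearing arrays. The median over 18 genes, all past the filter, was 0.11 log2 at 1M, -0.11 at 0.5M and -0.25 at 2M. Mobp, a myelin protein, Myrf, the factor that switches on myelin genes, and Ermn were 0.47, 0.43 and 0.40 log2 higher at 1M. At 0.5M and 2M, Mobp was also higher, by 0.26 and 0.53 log2. Myrf differed on these arrays by 0.02 and -0.04 log2, and Ermn by 0.14 and -0.05. Mog, a defining marker, stood at 10.12 in control and 10.37 at 1M. Ugt8a, which makes the galactolipids of myelin, was 0.50 log2 lower. The difference of these medians between arrays was not tested.

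Other glial lists lay near the median of all genes. The 16 astrocyte genes had a median of 0.05 log2, with 4 higher and 2 lower at 0.25. Of all genes, 21.1% were higher and 8.21% lower at that size. Gfap, the filament protein that rises in reactive astrocytes, stood at 9.17 in control and 9.42 at 1M, and Aqp4, the water channel of the endfeet, was 0.33 log2 lower. The 19 microglia genes had a median of 0.00 log2, 2 higher and 0 lower, or 0.13 with members past the 60th percentile. Trem2 and P2ry12 were 0.39 and 0.34 log2 higher, while Cx3cr1 and Aif1 differed by -0.11 and -0.14. Brain macrophage genes, 1 of 7 past the filter, had a median of -0.06 log2, or -0.19 after cyclic loess, with Mrc1 at -0.06 and Cd163 at 0.02.

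Inflammatory genes outside the interleukin-6 list lay on both sides of control. Cytokine and NF-kB genes had a median of 0.15 log2 over 29 genes, with 12 past the filter and a median of 0.08 over those. At 0.25 log2, 8 were higher, led by Nfkbia, and 1 lower, against 21.1% and 8.21% of all genes. Il1b and Tnf, the classical inflammatory cytokines, were 0.28 and 0.21 log2 higher, both below the filter, and Cxcl12, a chemokine of resting brain, was 0.37 lower. Of 23 interferon and MHC class I genes, 3 were higher and 4 lower, against the same shares. B2m, which encodes the invariant chain of these class I complexes, stood at 11.18 in control, 10.89 at 0.5M, 10.46 at 1M and 10.64 at 2M, and Ifi27 and Ifit3 were 0.48 and 0.41 log2 lower. The list median of 0.03 log2 was -0.15 over members past the filter and -0.48 past the 60th percentile. The MHC class II list, which also holds Cd80 and Cd86, had a median of 0.14 log2, or 0.02 after cyclic loess. Of its 8 measured genes 2 passed the filter, and 3 were higher and 1 lower at 0.25 log2, against the same shares. The higher ones were Cd80, H2-DMa and Cd86, at 0.38, 0.26 and 0.25 log2, and only H2-DMa of these passed the filter. The lower one, H2-Aa, below the filter, differed by -0.37 at 0.5M, -0.49 at 1M and -0.77 at 2M.

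In a cholesterol metabolism list, which holds regulators, carriers and exporters beside the synthesis enzymes, the median was -0.20 log2 at 1M, -0.12 at 0.5M and -0.29 at 2M. Of its 17 measured genes, all past the filter, 6 were at least 0.25 log2 lower and 0 higher, against 10.8% and 14.9% of genes past the filter. Hmgcs1, which makes HMG-CoA, stood at 10.48 log2 in control and 10.08 at 1M, and Cyp51, Sc5d and Msmo1, which act late in the synthesis pathway, were 0.41, 0.39 and 0.39 lower. The enzyme genes Idi1 and Fdft1 differed by -0.32 and -0.30 log2, while those of Fdps and Dhcr7 differed by 0.15 and 0.11. Apoe and Abcg1, which carry and export cholesterol, stood at 0.07 and 0.21 log2. Fatty acid and ketone genes had a median of -0.01 log2 over 31 genes, 3 higher and 3 lower. Pdk4, which spares glucose by blocking pyruvate dehydrogenase, was 0.49 log2 higher, and the elongase Elovl5 0.37 lower.

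Mitochondrial complexes had medians near 0 with members on both sides. Uqcrb of complex III stood at 11.71 log2 in control and 10.88 at 1M, and the ATP synthase genes Atp5md and Atp5pb were 0.73 and 0.60 lower, the latter 0.37 with probe sets averaged. Atp5j2 was 0.50 higher and Ndufa7 of complex I 0.53 higher. Complex I had a median of 0.04 log2 over 34 genes, 3 higher and 5 lower, and ATP synthase -0.01 over 17, 1 higher and 3 lower. Genes of the proteasome, which degrades tagged proteins, had a median of 0.01 log2 over 39 genes, 22 above control and 17 below. At 0.25 log2, 7 were lower, led by Psmd10 at -0.56, and 2 higher, against 8.21% and 21.1% of all genes. Of the 39, 36 passed the filter, and of all genes past it 10.8% were lower and 14.9% higher. Iron genes included Hmox1, haem oxygenase 1, at 0.51 log2, and Ireb2, an iron-sensing regulator, at -0.42.

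MicroRNA genes were spread more widely than coding genes. Past the filter, 14 of 93 were at least 0.5 log2 higher and 7 lower, against 1.63% and 2.14% of all genes past it, while 164 of 11573 protein-coding genes (1.42%) were higher. Over all 296 measured, the median was 0.14 log2, with 32 higher and 13 lower at 0.5 log2. A whole-transcript array reads RNA from the hairpin region, so these values are not levels of mature microRNA. Mature sequences from RefSeq (GRCm38.p6), found for 270 of the 296, are shown for the leading genes, with the seed, bases 2 to 8, in capitals.
mmu-miR-138-5p: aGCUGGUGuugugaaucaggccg
mmu-miR-107-3p: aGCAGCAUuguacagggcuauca
mmu-miR-543-3p: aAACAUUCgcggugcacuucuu
mmu-miR-219a-5p: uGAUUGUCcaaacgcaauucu
mmu-miR-376b-3p: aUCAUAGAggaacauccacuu
mmu-miR-381-3p: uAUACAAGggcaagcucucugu
mmu-miR-680: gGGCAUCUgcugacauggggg
mmu-miR-690: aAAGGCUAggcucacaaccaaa
Of these, Mir219a-1 and Mir219a-2 share the seed GAUUGUC and the whole mature strand, from separate chromosomes. This is a microRNA of oligodendrocytes, and both genes were higher at 1M, by 0.67 and 0.87 log2. Mir680-1 and Mir680-2, with the seed GGCAUCU, were both lower, by 0.97 and 0.72 log2. The near identity of such copies means that their probe sets can share signal.

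A large imprinted cluster on chromosome 12 went both ways. It holds 40 microRNA genes over 65.8 kb in RefSeq, of which 30 were measured and 23 passed the filter. It was taken as the run of neighbours within 50 kb of each other that holds Mir543, and was singled out after the values were seen. Its median was 0.13 log2 at 1M, with 4 genes at least 0.5 log2 higher, all past the filter, and 6 lower, of which 4 passed it. Of all genes, 3.21% were higher and 1.59% lower at that size, and of 266 other measured microRNA genes 28 were higher and 7 lower. Those 28 include Mir540 and Mir337, on the same chromosome but outside the run, at 0.71 and 0.51 log2. Mir543 stood at 6.69 log2 in control, 7.56 at 0.5M, 7.57 at 1M and 7.42 at 2M, and Mir369, Mir134 and Mir666 were 0.70, 0.52 and 0.50 higher at 1M. Mir376b stood at 7.80, 7.89, 7.12 and 7.67 log2, and Mir381 at 7.39, 7.34, 6.61 and 7.04. For the high genes all tumour-bearing arrays lay above control, whereas for Mir376b the 1M array was the lone low one. For Mir381 the 1M array was the lowest, and 2M differed from control by -0.34 log2. Mir539 and Mir377 were 0.67 and 0.64 log2 lower at 1M, and Mir376a, below the filter, stood at -0.78. Mir376c, also below the filter, was low on all tumour-bearing arrays, at -0.93, -1.10 and -0.96 log2 at 0.5M, 1M and 2M.

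**Figure D5:**
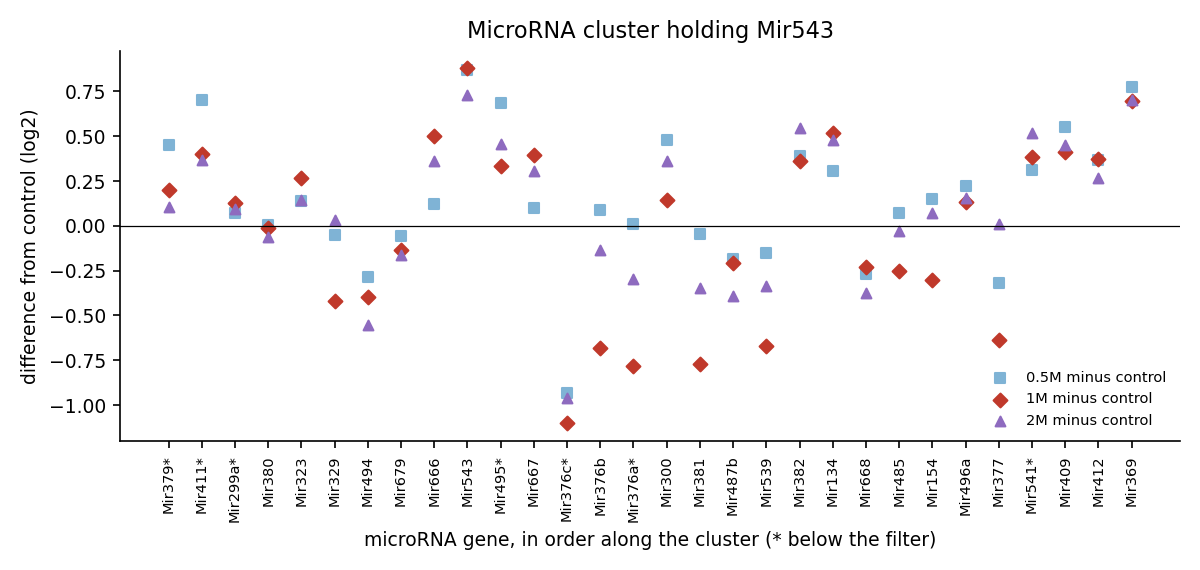
Log2 difference from the control array (y axis) for 30 measured microRNA genes of the chromosome 12 cluster, in their order along it (x axis), with 1 symbol for each tumour-bearing array and asterisks for genes below the filter. Mir543 and Mir369 lie above 0 on all arrays, at 0.88 and 0.70 log2 at 1M. Mir376b, Mir376a, Mir381 and Mir539 lie at -0.67 or below at 1M while the other arrays are nearer 0. Mir376c lies low on all of them, at -0.93, -1.10 and -0.96 log2 at 0.5M, 1M and 2M.

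Small nucleolar RNAs, which guide modification of ribosomal RNA, also went both ways, with 4 of 54 at least 0.5 log2 higher and 9 lower, against 3.21% and 1.59% of all genes. The median was -0.06 log2, and 32 of the 54 passed the filter. Snord49b stood at 9.24 log2 in control, 10.65 at 0.5M, 10.53 at 1M and 10.27 at 2M, and its family member Snord49a was 0.66 higher at 1M. Snora16a differed from control by -0.36 log2 at 0.5M, -1.06 at 1M and -1.30 at 2M, and Scarna13, of the Cajal body, by -0.27, -0.87 and -1.36. In Snord47 the 1M array was the lone low one, at 7.90, 8.40, 7.19 and 7.84 log2 in control, 0.5M, 1M and 2M. In Snord37, below the filter, the 1M array was the lowest, at 5.68, 5.24, 4.15 and 5.06 in the same order. Proteins of the ribosome itself had medians of -0.01 log2 in the cytosol, over 59 genes, and 0.03 in the mitochondrion, over 77.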

How the data were processed

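Total RNA of the hypothalamus, with an RNA integrity number above 8 and 100 ng per array, was hybridised to whole-transcript arrays, per the labels' protocols. The deposited table holds log2 levels, for which the submitters' processing notes name RMA. This method corrects background, gives all arrays one intensity distribution and combines the probes of each probe set, so a shift of all transcripts together cannot be seen. RMA's software, its release and which arrays entered it were not given in the sources used here. No genome build is named for the values.

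Of 35556 probe sets, 21789 had exactly 1 gene symbol, 1621 several and 12146 none, with 0 missing values and 0 columns without a sample. A gene was its probe set with the highest mean over the 4 arrays (999 genes had several). Genes whose mean reached the 40th percentile of all genes, 6.59 log2, passed the filter. Each difference is the 1M value minus the control value. Precision is limited by the number of arrays. Nothing was tested, since 1 array stood against 1. Gene lists (41, plus 13 families taken by symbol) were described by their median and by counts at 0.25 and 0.5 log2 over all measured members. The comparison, lists and motifs were chosen with earlier results of these data known, and the dopamine neuron list and the chromosome 12 cluster after the values were seen.

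The rule for named genes took, past the filter, the 12 highest, the 12 lowest, and the 8 highest and 8 lowest by the gap of 1M to the nearest other array. It also took the 5 highest and 5 lowest of all genes, as many as 4 members of each list by size of difference, from 0.25 log2 up, and fixed appetite peptides and markers. It took 210 genes. Other list members named in the text were picked with their values in view. Python 3.11.15, numpy 2.4.6, pandas 2.3.3, matplotlib 3.10.9 and, for cyclic loess, limma 3.58.1 in R 4.3.3 were used, and the counts were tested on simulated data. Promoter windows matched 9566 of the 11963 genes past the filter. Alternatives were cyclic loess, centring, averaged probe sets, no filter, a 60th percentile filter and probe sets in place of genes. After the data were seen, a filter from the compared arrays only and list members past the filter only were added.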

Additional observations from a re-analysis of the deposited data

Results flagged for a closer look

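Probe sets outside the gene comparison also differed. Among the 12146 with no gene symbol, 161 were at least 1 log2 higher at 1M than in control and 793 at least 1 log2 lower. The same counts were 120 and 241 at 0.5M and 129 and 414 at 2M. Their median difference at 1M was -0.02 log2, and their largest differences were 2.86 and -4.49 log2. At 0.5 log2, 972 of them were higher and 2157 lower at 1M, against 3.21% and 1.59% of all genes. They were not filtered on level, whereas the shares given above at 1 log2 are of genes past the filter. What these probe sets measure was not analysed. Among the 1621 with several symbols, 1 was at least 1 log2 higher and 3 lower. These probe sets belong to no gene described above and were looked at for this reason only.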

How the results depend on the processing

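No paired analysis was possible because each group was 1 array. Without the filter 640 genes were at least 0.5 log2 higher and with the 60th percentile filter 85, against 195. The lower count stayed within 1.5 times of 256 under all alternatives, from 191 to 381. Of genes past 0.5 log2, 43.2% were higher, 36.1% after cyclic loess, 35.9% with centred arrays, 66.8% without the filter and 30.8% with the 60th percentile filter. The 2 genes highest at 1M became 0 after cyclic loess, 1 with centring, 34 without the filter and 0 with the 60th percentile filter, and the 21 lowest became 13 with that filter and 49 over probe sets. With the 60th percentile filter, list medians moved to -0.23 for anorexigenic peptides, -0.48 for the dopamine system, -0.30 for tanycytes, 0.13 for microglia, 0.088 for the interleukin-6 list and -0.48 for interferon genes. After cyclic loess they moved to -0.069 for midbrain and hindbrain, 0.24 for pituitary, -0.19 for brain macrophages and 0.024 for MHC class II. Over members past the filter, added after the data were seen, they were -0.43 for the dopamine system, -0.15 for interferon genes, 0.83 for blood transcripts and 0.0012 for choroid plexus. The causes were not tested, apart from fewer genes being counted under a stricter filter. With probe sets averaged, Homer2, Cycs and Atp5pb stood at -0.46, -0.28 and -0.37 log2. Among these alternatives, list medians changed sign only where the reported median lay within 0.1 log2 of 0, none of the 210 single genes recomputed changed sign, and 302 list values moved by less than 0.1 log2. The dopamine neuron genes kept a median between -0.44 and -0.48.

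Limits are 1 array on each side, pools of unequal size and an offset at low level. Signal over background was not analysed here, and a difference at 1M holds whatever sets either pool apart.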
